A study of Mus musculus with 18 samples.

Results

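SB24011, a small molecule that the series title describes as blocking the contact between STING and TRIM29, raised a scattered group of genes in macrophage-like cells that are better known from liver, muscle, epithelium and connective tissue. The 10 genes described here are Car6, Extl1, Aqp9, Adh7, Fbln5, Cox6a2, Angptl6, Acot2, Soat2 and Thrb, out of 45777 genes in the table. They were picked by name because they rose steeply with SB24011 and little or not at all with 7a. They also lay outside the lists of stress genes in use, which need not be complete. Their levels with SB24011, with 7a and in the matching controls therefore chose them, and these differences are given as a description without a test. All 10 passed the filter on low counts that left 14650 genes for testing.

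The cells were wild-type RAW264.7, which are macrophage-like and of mouse origin, and each treatment lasted 6 h without serum. There were 6 groups of 3 libraries. A first pair of groups had no cGAMP and received either DMSO, the vehicle, or SB24011 at 20 uM. The other 4 groups all received cGAMP at 20 uM, given without a further compound, with SB24011 at 10 uM, with SB24011 at 20 uM, or with 7a at 20 uM. cGAMP is the second messenger through which the DNA sensor cGAS switches on STING, and 7a is given by the design as a negative analog of SB24011. 7a was never given without cGAMP. The labels do not say whether the 3 libraries of a group came from separate cultures, so p-values measure the spread between libraries, which may be technical.

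Libraries held between 45165780 and 65810517 counts. Levels are TMM-scaled CPM, read counts corrected for depth and library composition, with the SD over 3 libraries. Levels per length are the deposited FPKM. Of 15 macrophage markers 14 had a group mean of at least 1 CPM in each group. Of the 12 hepatocyte markers 7, among them albumin (Alb), Apoa1 and Ttr, were at 0 in all 18 libraries. The 12 summed to at most 0.0351 CPM in the groups without SB24011 and to at most 0.288 CPM in those with it. None of them had more than 7 reads in a library. The 15 salivary and gastric epithelium markers summed to at most 0.0646 CPM and the 12 fibroblast and smooth muscle markers to at most 0.927 CPM. In bulk RNA, fewer cells of a type and less RNA per cell cannot be told apart.

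The proteins act in separate places. Car6 is a carbonic anhydrase known from saliva, Extl1 a glycosyltransferase of heparan sulfate chains, and Fbln5 an extracellular protein needed to assemble elastic fibres. Angptl6 is a secreted angiopoietin-like factor known from liver, and Aqp9 is a membrane channel that passes glycerol as well as water. Adh7 oxidises retinol and other alcohols, Acot2 releases fatty acids from coenzyme A inside mitochondria, Soat2 makes cholesterol esters, Cox6a2 is the heart and skeletal muscle form of a cytochrome c oxidase subunit, and Thrb is a nuclear receptor for thyroid hormone. ATF4 and CHOP, transcription factors of the integrated stress response, act in part through C/EBP-ATF elements.

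Promoters of 8 of the 10 genes, 11 sequences in all, were read from RefSeq on GRCm38.p6, each with 250 bases before and 50 after a transcript start. The C/EBP-ATF element, searched as TGATGNAAN on both strands, was in 2 of the 11 (3.95% of 32851 promoters), and the AP-1 site, searched as TGANTCA, was in 2 (7.81%). The 3 promoters with either are shown because they are the ones that carry these letters, with the matches in capitals. They lie at chr12:101818435-101818734 (minus strand, Fbln5), chr9:71162584-71162883 (minus strand, Aqp9) and chr3:138217523-138217822 (plus strand, Adh7).
Fbln5: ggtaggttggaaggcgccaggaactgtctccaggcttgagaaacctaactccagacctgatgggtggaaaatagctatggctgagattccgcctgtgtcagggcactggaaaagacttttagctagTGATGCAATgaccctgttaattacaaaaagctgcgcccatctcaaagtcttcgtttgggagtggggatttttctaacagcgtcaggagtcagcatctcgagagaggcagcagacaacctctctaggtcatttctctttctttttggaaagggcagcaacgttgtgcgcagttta
Aqp9: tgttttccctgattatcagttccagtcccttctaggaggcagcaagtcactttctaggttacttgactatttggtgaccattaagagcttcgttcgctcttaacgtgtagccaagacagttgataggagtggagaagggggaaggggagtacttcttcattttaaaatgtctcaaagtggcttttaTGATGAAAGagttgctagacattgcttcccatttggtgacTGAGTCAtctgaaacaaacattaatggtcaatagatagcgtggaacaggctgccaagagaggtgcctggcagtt
Adh7: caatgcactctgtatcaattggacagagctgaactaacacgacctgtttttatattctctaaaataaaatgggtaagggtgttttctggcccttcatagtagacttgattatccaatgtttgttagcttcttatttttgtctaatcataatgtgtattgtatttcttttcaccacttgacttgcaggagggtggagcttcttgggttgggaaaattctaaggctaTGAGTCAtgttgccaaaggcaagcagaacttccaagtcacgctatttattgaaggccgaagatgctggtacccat

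Fbln5 and Aqp9 each had 2 promoters among the 11 windows, and the C/EBP-ATF and AP-1 matches were only in the promoter shown. The Fbln5 match to the C/EBP-ATF element starts 124 bases before the transcript start of that promoter and the Aqp9 match 64 bases before. The AP-1 matches start 24 bases before that start in Aqp9 and 25 bases before the start shown for Adh7. The starts shown for Fbln5, Aqp9 and Adh7 lie inside the mapped spans of these genes. Which starts the cells used was not tested. CACGTG was in a promoter each of Car6 and Thrb (7.15% of all promoters), and the antioxidant response core TGACNNNGC in 1 promoter of Thrb (12.4%). The cAMP response element TGACGTCA (1.79%) and direct repeats of AGGTCA, spaced by 4 or by 1, were not among the letters of the 11 windows. A match describes letters only.

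Car6, Fbln5, Extl1 and Angptl6 started from low levels. Counts are per gene, so they do not tell which transcript form of a gene rose. Car6 (chromosome 4, 150187015 to 150201135) had 2, 2 and 4 reads in the DMSO libraries and 402, 474 and 422 with SB24011 alone. With cGAMP alone it had 0, 8 and 0 reads, with cGAMP and 10 uM SB24011 it had 87, 180 and 166, and with cGAMP and 20 uM it had 151, 208 and 237. No library with 7a had a read. The lowest library with SB24011 was thus far above the highest without it, and the rise with SB24011 alone was 7.31 ± 0.56 on the log2 scale (SE), the 7th steepest of 14650 genes.

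Fbln5 (chromosome 12, 101746565 to 101819119) stood at 0.176, 0.516 and 0 CPM in DMSO and at 6.05, 4.75 and 5.61 CPM with SB24011 alone. It stood at 0, 0.232 and 0.259 CPM with cGAMP, at 2.99, 3.05 and 2.72 with 10 uM SB24011 added, at 3.39, 1.98 and 2.91 with 20 uM added, and at 0.323, 0.241 and 0 with 7a added. The 3 groups without SB24011 overlapped each other, and none of their libraries reached those with SB24011. Its log2 fold change with SB24011 alone was 4.47 ± 0.72 (SE). In each group without SB24011, 1 library had no read.

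Extl1 (chromosome 4, 134356373 to 134372547) went from 0.264, 0.56 and 0.294 CPM in DMSO to 11.3, 13.9 and 10.8 CPM with SB24011 alone. On cGAMP it went from 0.176, 0.256 and 0.237 CPM to 6.14, 9.05 and 7.83 with 10 uM and 7.16, 7.98 and 6.83 with 20 uM SB24011. With 7a it stood at 0.56, 0.594 and 0.229 CPM, overlapping cGAMP alone. The log2 fold changes were 4.98 ± 0.28 with SB24011 alone and 5.04 ± 0.31 with 20 uM on cGAMP.

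Angptl6 (chromosome 9, 20873808 to 20879822) rose from 1.56, 1.74 and 1.22 CPM to 22.9, 21.3 and 17.6 CPM with SB24011 alone, by 3.76 ± 0.19. It stood at 1.11, 1.58 and 0.969 CPM with cGAMP, at 17.6, 14 and 19.2 with 20 uM SB24011 added and at 1.23, 0.836 and 1.14 with 7a added, where it overlapped cGAMP alone. The gene shares 500 bases on the map with Shfl, an antiviral gene, and 12.7% of the 75-base stretches of its transcripts also occur there. How the authors' counting divided such reads is not given in the sources used here, so the Angptl6 level is uncertain. Shfl, named because of this overlap, fell with SB24011 alone (47.8 ± 6.63 to 34 ± 4.21 CPM, edgeR adjusted p = 0.0025), opposite to Angptl6.

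The channel and the enzymes of small molecules followed the same pattern. Aqp9 (chromosome 9, 71110659 to 71167849) stood at 0.47, 1.09 and 0.667 CPM in DMSO and at 14, 17.2 and 15.7 CPM with SB24011 alone. On cGAMP it stood at 0.421, 0.906 and 0.56 CPM without SB24011, at 10.5, 14.2 and 12.5 with 10 uM and at 13.7, 13.5 and 12.7 with 20 uM. Its 7a libraries, at 1.1, 1.3 and 0.523 CPM, overlapped cGAMP alone, and its log2 fold change with SB24011 alone was 4.38 ± 0.29.

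Adh7 (chromosome 3, 138198064 to 138232042) went from 0.528, 1.03 and 0.255 CPM to 8.46, 10.8 and 8.96 CPM with SB24011 alone, by 3.91 ± 0.35. On cGAMP it went from 0.176, 0.348 and 0.323 CPM to 4.02, 5.64 and 5.84 with 10 uM and 4.47, 6.16 and 6.3 with 20 uM SB24011. With 7a it stood at 0.237, 0.594 and 0.604 CPM, which overlapped cGAMP alone.

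Acot2 (chromosome 12, 83987861 to 83993877) had the highest count of the 10 genes, at 4.87, 4.29 and 4.73 CPM in DMSO and 44, 52.4 and 54.2 CPM with SB24011 alone, a log2 fold change of 3.44 ± 0.16. On cGAMP it stood at 2.77, 4.07 and 3.58 CPM, at 21.6, 32.1 and 33.1 with 10 uM SB24011, at 30.7, 32.6 and 39 with 20 uM and at 3.94, 3.88 and 3.9 with 7a. Soat2 (chromosome 15, 102150415 to 102163469) went from 1.47, 1.69 and 1.41 CPM to 16, 15.3 and 13.2 CPM with SB24011 alone, by 3.28 ± 0.17. Soat2 was the 1 gene of the 10 whose 7a libraries (2.35, 2.25 and 1.34 CPM) all lay above those with cGAMP alone (1.02, 1.21 and 1.1 CPM), with a log2 fold change of 0.83 ± 0.19. All of them stayed far below the lowest library with SB24011 on cGAMP, at 12.4 CPM.

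Cox6a2 (chromosome 7, 128205435 to 128206366) split the libraries without SB24011. Replicate 2 held 149 reads in DMSO, 95 with cGAMP and 105 with 7a, where the other libraries of these groups held 13 to 30. With SB24011 alone the level was 19.5, 18.6 and 18.4 CPM, and with 20 uM on cGAMP it was 12.8, 12.3 and 15.3 CPM, above all libraries without SB24011. The log2 fold change of 4.24 ± 0.74 with SB24011 alone carries the spread of the DMSO libraries (0.206, 2.2 and 0.51 CPM). Replicate 2 was also the highest DMSO library for 7 of the 10 genes and the highest cGAMP library for 8, but the highest 7a library for 3.

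**Figure D1:**
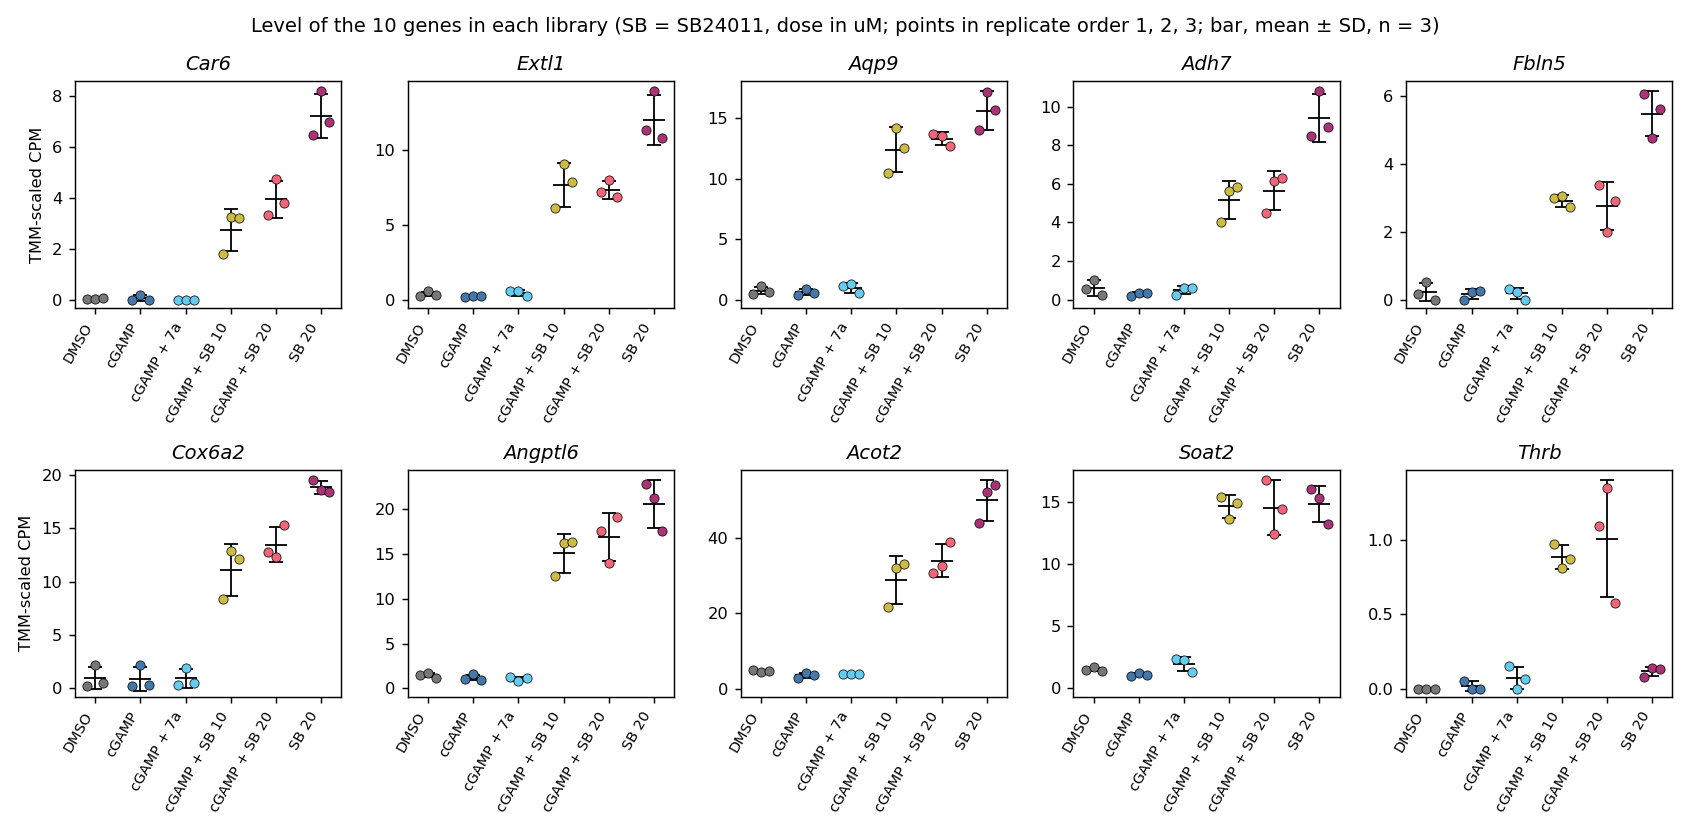
TMM-scaled CPM (y axis, linear, own scale per gene) of each of the 10 genes in the 6 groups (x axis), with 1 point per library and the mean ± SD of 3. In all 10 panels the libraries with SB24011 lie above those without it except that SB24011 alone overlaps 7a for Thrb, the 1 gene that is low with SB24011 alone and high with SB24011 and cGAMP together.

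Thrb (chromosome 14, 17659225 to 18040097) had its own pattern. It had no read in DMSO, 3, 0 and 0 reads with cGAMP and 7, 0 and 4 with 7a. SB24011 alone gave 5, 8 and 8 reads. With cGAMP and SB24011 together it had 47, 45 and 45 reads at 10 uM and 50, 59 and 36 at 20 uM. The groups with both agents thus stood clear of the other 4, while SB24011 alone overlapped 7a.

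Against DMSO, Thrb with SB24011 alone was at least 7.25-fold higher, taking a floor of 3 counts over the DMSO group. On cGAMP the ratio of summed counts was 46.6 for 20 uM SB24011 (95% exact counting interval 15.6 to 229), 42.9 for 10 uM (14.4 to 211) and 3.32 for 7a (0.878 to 18.6). Such intervals and floors cover counting error only. The level stayed low in all groups, at no more than 0.0683 ± 0.0262 FPKM.

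With 7a the log2 fold changes on cGAMP were 1.03 ± 0.39 for Extl1, 0.82 ± 0.48 for Adh7, 0.64 ± 0.35 for Aqp9, 0.18 ± 0.17 for Acot2 and -0.18 ± 0.23 for Angptl6. For 20 uM SB24011 against 20 uM 7a, both on cGAMP, the median over the 10 genes was 3.83, where the median of all tested genes was 0.00627. Car6 was at least 211-fold higher with SB24011 than with 7a. The medians over the 10 genes were 4.31 for SB24011 alone, 4.25 for 20 uM and 4.22 for 10 uM on cGAMP and 0.42 for 7a. With 7a the median of all tested genes was -0.00599, so the 10 genes lay somewhat higher there as well. The lowest rise among the 10 was 3.28 for SB24011 alone and 3.31 for 20 uM on cGAMP. Rises at least as large in both were found for 44 genes, the 10 included, of which 3 were in the ATF4 and CHOP list and 31 were in no list.

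**Figure D2:**
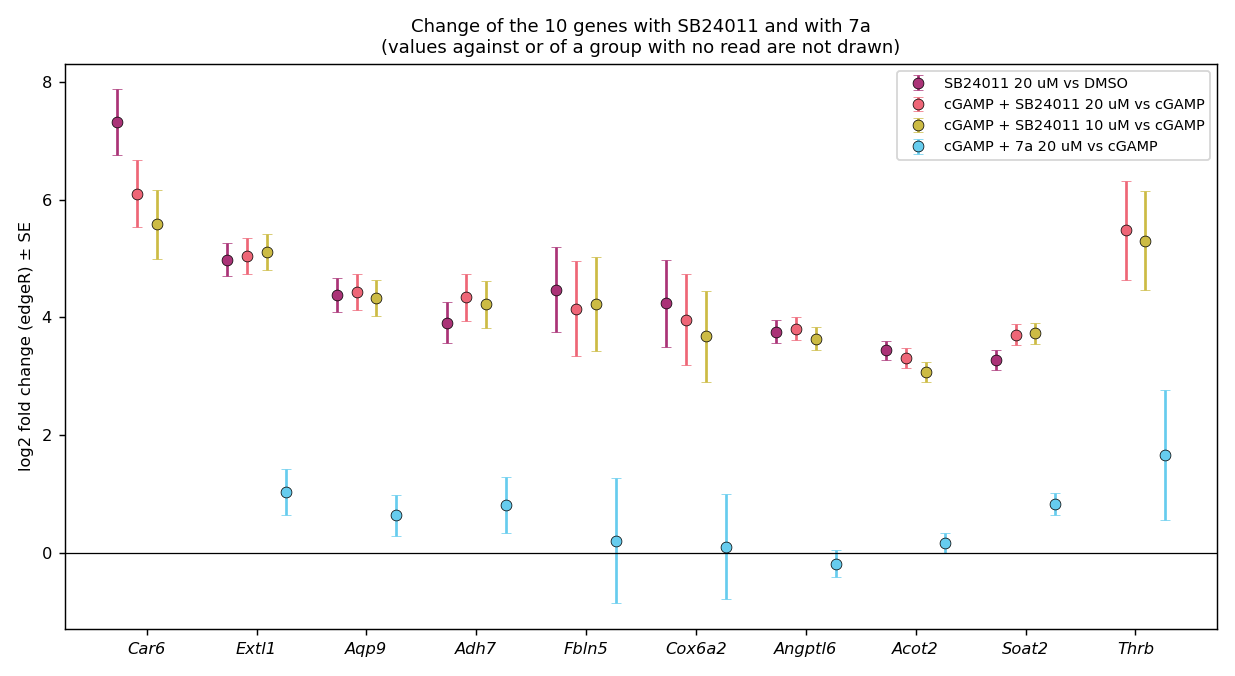
Log2 fold change ± SE from edgeR (y axis) of the 10 genes (x axis) with SB24011 alone, with 20 and 10 uM SB24011 on cGAMP and with 7a on cGAMP, where values of or against a group with no read are not drawn. The SB24011 values lie between 3.07 and 7.31 and the 7a values between -0.18 and 1.67.

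Per length, the order with SB24011 alone was Cox6a2 (26.1 ± 0.899 FPKM), Acot2 (20.9 ± 2.21), Angptl6 (11.3 ± 1.51), Soat2 (6.24 ± 0.64), Aqp9 (5.41 ± 0.551), Car6 (4.82 ± 0.574), Adh7 (4.14 ± 0.528), Extl1 (2.67 ± 0.355), Fbln5 (1.07 ± 0.465) and Thrb (0.00804 ± 0.00239). From Soat2 to Adh7 the SD ranges of neighbours overlapped.

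Closest relatives show what else the cells express. Soat1, the form of the enzyme typical of macrophages, stood at 54.1 ± 1.11 FPKM in DMSO and rose to 81.3 ± 1.23 with SB24011 alone (log2 fold change 0.55 ± 0.08, edgeR adjusted p = 1.98e-05). Soat2 made up 1.13% ± 0.101 of the summed FPKM of the pair in DMSO and 7.13% ± 0.734 with SB24011 alone. Cox6a1, the form found in most tissues, stood at 201 ± 15.6 FPKM in DMSO and 206 ± 7.86 with SB24011 alone (0.00 ± 0.06, adjusted p = 0.993). Cox6a2 made up 0.677% ± 0.779 of that pair in DMSO and 11.3% ± 0.604 with SB24011 alone.

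Cox7a1, another muscle form of an oxidase subunit, stood at 1.01 ± 0.0598 CPM in DMSO and 1.02 ± 0.166 with SB24011 alone (0.02 ± 0.27, adjusted p = 0.971), and Cox8b was at 0 in every library. Soat1, Cox6a1, Cox7a1 and Cox8b were singled out after their values were seen. The 16 skeletal and cardiac muscle markers summed to between 9.38 and 18.6 CPM, mostly from Tnni2, and Myh1, Myh4 and Mb were at 0.

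Thra, the other thyroid hormone receptor gene, moved opposite to Thrb. It fell from 16.1 ± 2.23 to 9.27 ± 0.526 CPM with SB24011 alone (-0.79 ± 0.12, adjusted p = 5.28e-05) and from 8.48 ± 1.44 to 5.79 ± 0.712 CPM with 20 uM on cGAMP (-0.55 ± 0.13, adjusted p = 0.00218). Thrb was still only 4.97% ± 1.81 of the summed FPKM of the pair with cGAMP and 20 uM SB24011.

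Acot1, the cytosolic neighbour of Acot2 in sequence, rose with SB24011 alone from 0.926 ± 0.0656 to 4.68 ± 0.357 CPM (2.34 ± 0.23, adjusted p = 4.67e-07). Of the 75-base stretches of Acot2 transcripts 20.5% also occur in Acot1, so the counting could divide reads between them and the rise of Acot1 is uncertain.

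**Figure D3:**
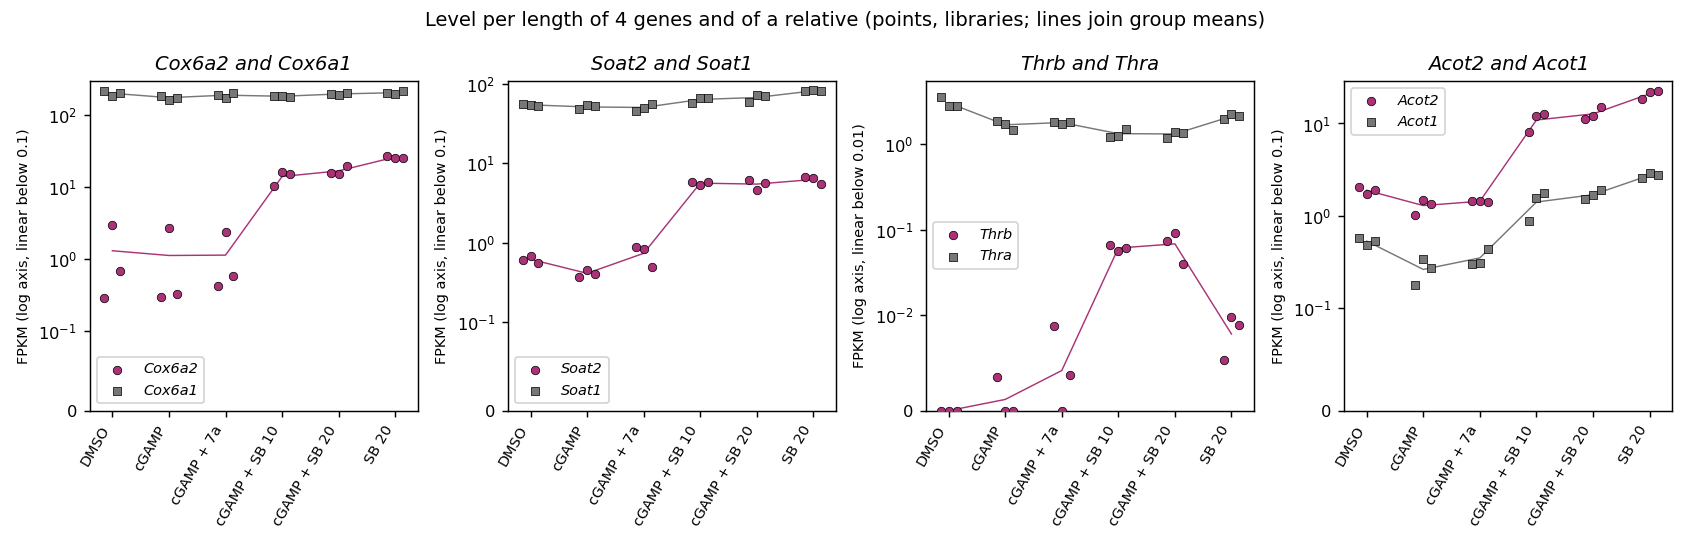
FPKM (y axis, log scale that turns linear near 0) of Cox6a2, Soat2, Thrb and Acot2 (circles) and of a relative of each (squares) in the 6 groups, with 1 point per library and lines through group means. Cox6a1 and Soat1 lie above their partners in every group, and Acot1 lies below Acot2.

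Over the 10 gene families, 56 of 98 relatives could be tested. With SB24011 alone 14 rose and 14 fell in edgeR's quasi-likelihood test with Benjamini-Hochberg adjustment (background 44.6% of genes called, 20.4% up and 24.3% down), with a median log2 fold change of 0.02. With library size alone as the scaling the relatives split into 17 up and 11 down, and 57.4% of all called genes were up in place of 45.7%. With 20 uM SB24011 on cGAMP 17 relatives rose and 8 fell (background 42.3%, 21.7% up and 20.6% down), and with 10 uM 14 rose and 12 fell (background 39%, 19.9% up and 19.1% down). For 20 uM SB24011 against 20 uM 7a 14 were higher and 7 lower (background 36.4%, 19.7% up and 16.7% down). With 7a none was called (background 0%), and neither DESeq2 nor limma called any. At an unadjusted p under 0.05 edgeR had 4 of the 56 relatives and 1208 of all 14650 genes. Of all genes a replicate block called 8 and DESeq2 38 with 7a.

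Among relatives, Ext1, a polymerase of heparan sulfate, rose with SB24011 alone (1.05 ± 0.15, adjusted p = 2.3e-05), and Car2, a cytosolic carbonic anhydrase, fell from 328 ± 73.9 to 133 ± 23.3 CPM (-1.30 ± 0.27, adjusted p = 0.00133). Car7 rose (1.13 ± 0.29) and Car15 fell (0.209 ± 0.126 to 0.0161 ± 0.0279 CPM). Porcn, which attaches a fatty acid to Wnt proteins, rose by 1.27 ± 0.35 and Dgat2, which makes triglyceride, by 0.99 ± 0.24. Rarb and Vdr, receptors for retinoic acid and vitamin D, fell by 1.64 and by 1.69 on the log2 scale. On cGAMP, Lcat fell by 1.30 and the fibulin relative Hmcn2 rose by 1.49 ± 0.55 with 20 uM SB24011.

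The counts of pathway genes with SB24011 alone stand beside a background of 44.6% of all genes called, 20.4% up and 24.3% down. Of 18 tested genes of cholesterol esters and lipid droplets 11 rose and 2 fell, with a median log2 fold change of 0.46. Plin2, which coats lipid droplets, rose from 73.4 ± 5.36 to 191 ± 8.99 CPM (1.38 ± 0.09), and Npc1, which exports cholesterol from lysosomes, by 1.08 ± 0.06. Abca1, the cholesterol exporter of the cell surface, fell from 1.47 ± 0.31 to 0.389 ± 0.203 CPM (-1.91 ± 0.42, adjusted p = 0.00126). On cGAMP with 20 uM SB24011 the count was again 11 up and 2 down (background 21.7% up and 20.6% down).

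Of 16 genes of thyroid hormone transport, activation and response 4 rose and 3 fell, near the background of 44.6%, with a median of 0.05. Dio2, the deiodinase that makes active thyroid hormone, rose from 0.392 ± 0.0902 to 2.45 ± 0.203 CPM (2.65 ± 0.36, adjusted p = 1.55e-05) and on cGAMP from 0.476 ± 0.196 to 2.40 ± 0.906 CPM. The amino acid transporter genes Slc7a5 and Slc7a8, whose proteins also carry thyroid hormone, rose by 1.20 ± 0.09 and 0.85 ± 0.26.

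Against the same background of 44.6%, 5 of 16 genes of retinol and aldehyde metabolism rose and 1 fell. Those that rose included the retinal reductase genes Dhrs3 (1.07 ± 0.32) and Rdh14 (0.81 ± 0.11) and the fatty aldehyde dehydrogenase gene Aldh3a2 (0.77 ± 0.05). Aldh1a2 had no read in DMSO and 0.0731 ± 0.0636 CPM with SB24011 alone. Of 18 heparan sulfate genes 5 rose and 6 fell, with the epimerase gene Glce up by 0.90 ± 0.07 and the sulfotransferase genes Ndst2 and Hs3st3a1 down by 0.67 and by 0.77 on the log2 scale (-0.67 and -0.77). Of 21 genes of fatty acid oxidation 5 rose and 3 fell, with Fabp3 at 1.12 ± 0.27 and Cpt1a at 0.53 ± 0.13. Of 7 elastic fibre genes 2 rose and 1 fell. Fbn1 rose from 0.128 ± 0.114 to 0.436 ± 0.166 CPM and Emilin2 fell (-0.29 ± 0.07). With 20 uM SB24011 on cGAMP none of the 7 rose and 1 fell, and Fbn1 was not called (adjusted p = 0.283).

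Of 43 tested ATF4 and CHOP target genes 40 rose and 1 fell, with a median of 1.34, and of 24 NRF2 target genes 7 rose and 3 fell, with a median of -0.01 (background 44.6%, 20.4% up and 24.3% down). These lists were written with earlier results of the same libraries known and are no independent evidence of direction.

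The genes whose profile over the 18 libraries was most like the mean profile of the 10 were Cyb5r1 (r = 0.996), the cysteine synthesis gene Cth (0.994), the mitochondrial dehydrogenase gene Dld (0.993), and Nfe2l1, Trim35 and Slc38a7 (0.992 each). Of these, Cth was in the ATF4 and CHOP list and the others were in no list. These correlations describe libraries that share the same treatment groups. Slc6a9, a glycine transporter gene, was close to Soat2 (0.996), and the mitochondrial protease gene Lonp1 and Fcgr2b to Angptl6 (0.992 each). For Car6 the nearest were Agap1 (0.987) and Ppp3cc (0.981), for Acot2 Ppp3cc and Dennd2d (0.993 each) and for Aqp9 Dld (0.993). Ift52 (0.984) and Mia2 (0.98) were nearest to Adh7, Kctd18 (0.955) and Tars2 (0.953) to Fbln5, and Lrp12 (0.973) and Anxa3 (0.97) to Cox6a2. Nearest to Extl1 were Aldh18a1, of proline synthesis (0.991), and Slc1a4, of the ATF4 and CHOP list (0.99). Thrb was least like the others, with r between 0.652 and 0.823, and the gene nearest to it was Acss2 (0.957), which makes acetyl-CoA.

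Whether cGAMP changed the 10 genes on its own shares its libraries with the contrasts that chose them, but is a different difference. edgeR called 0 of 10 for cGAMP against DMSO (background 35.4%, 15.6% up and 19.8% down), while DESeq2 called 1 and limma 0. Car6, Fbln5 and Thrb had few reads in both groups, with 95% intervals of -1.88 to 2.57, -2.75 to 1.44 and -0.68 to 7.27. Car6 and Thrb passed the filter on low counts only through groups with SB24011. For such genes the absence of a call does not show a level unchanged by cGAMP. At an unadjusted p under 0.05 edgeR had 3 of the 10 and 6343 of all 14650 genes. Those 3 were Adh7 (-1.16 ± 0.45, adjusted p = 0.0565), Acot2 (-0.42 ± 0.17, adjusted p = 0.0637) and Soat2 (-0.47 ± 0.20, adjusted p = 0.0728), all lower with cGAMP. With library size alone these 3 passed, but that scaling also moved the median of all genes from -0.0572 to -0.187 and lowered the part of all calls that were up from 44.1% to 24.9%. Adh7 passed without DMSO replicate 3 (-1.49, adjusted p = 0.00985) and Acot2 without cGAMP replicate 2 (-0.55, adjusted p = 0.035). A replicate block for library set called 2 of the 10, both lower with cGAMP. The share of all genes called with that block is not given here, so this count is not read as a result. The deviations from group means of the set 3 libraries correlated at only 0.0242 in this comparison.

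Raising SB24011 from 10 to 20 uM on cGAMP changed no gene that edgeR could call, 0 of 10 and 0 of all 14650 (background 0%), with DESeq2 and limma also at 0. At an unadjusted p under 0.05 edgeR had 404 genes, none of the 10, and limma had 462 genes, 1 of the 10 among them. Car6 had the largest difference, 3.95 ± 0.729 against 2.75 ± 0.828 CPM (0.52 ± 0.35, 95% interval -0.24 to 1.28), with no overlap between the libraries. For Acot2 the interval was -0.06 to 0.54 and for Soat2 -0.33 to 0.30. The interval for Cox6a2 ran from -1.03 to 1.59, so changes in either direction within it are not excluded.

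Adding cGAMP to 20 uM SB24011 was compared with SB24011 alone, in libraries that also served to pick the genes. In the main model 1 of the 10 genes rose and 2 fell, a share near that of all genes called there (background 27.4%, 15% up and 12.4% down). With limma on log2(FPKM + 1) 1 of the 10 rose and 7 fell, against 1462 up and 4620 down of all 14650 genes. The count among the 10 thus depended on the fit. Thrb rose from 0.117 ± 0.0318 to 1.01 ± 0.391 CPM (3.07 ± 0.63, adjusted p = 0.00173), higher in 3 of 3 library sets. Thrb had few reads outside the groups with both agents and passed the filter on low counts through those groups, which also served to pick it, so this p is no independent support. Its adjusted p was between 0.00142 and 0.0109 when any library of the 2 groups was left out.

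Acot2 fell from 50.2 ± 5.42 to 34.1 ± 4.33 CPM (-0.56 ± 0.14, adjusted p = 0.00687) and Extl1 from 12 ± 1.64 to 7.32 ± 0.594 CPM (-0.71 ± 0.21, adjusted p = 0.019), each lower in 3 of 3 sets and without overlap. The Extl1 call ended without SB24011 replicate 2 (-0.60, adjusted p = 0.0976) and without replicate 1 (-0.70, 0.0576) or replicate 3 (-0.66, 0.0599) of the combined group. Car6 (7.21 ± 0.88 against 3.95 ± 0.729 CPM, -0.87 ± 0.35, adjusted p = 0.0799) and Adh7 (9.4 ± 1.22 against 5.64 ± 1.02 CPM, -0.73 ± 0.30, adjusted p = 0.0792) did not pass. With a replicate block for library set both passed (adjusted p = 0.012 and 0.00826), which made 1 up and 4 down. The share of all genes called with the block is not given here.

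Fbln5 (-0.98 ± 0.58), Cox6a2 (-0.48 ± 0.60), Angptl6 (-0.28 ± 0.16) and Aqp9 (-0.23 ± 0.23) were not called. Soat2 was level at 14.5 ± 2.19 and 14.8 ± 1.45 CPM (-0.03 ± 0.15, 95% interval -0.34 to 0.28). With library size alone 1 rose and 5 fell, and the share of all called genes that rose went from 54.7% to 24.2% while their median moved from -0.0138 to -0.184. Lck and Pax5 of the lymphocyte list were higher with cGAMP (Lck at 11.3 CPM with SB24011 alone and 22.5 with both), while Cd3e and Ms4a1 were at 0; their part in the result was not tested.

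**Figure D4:**
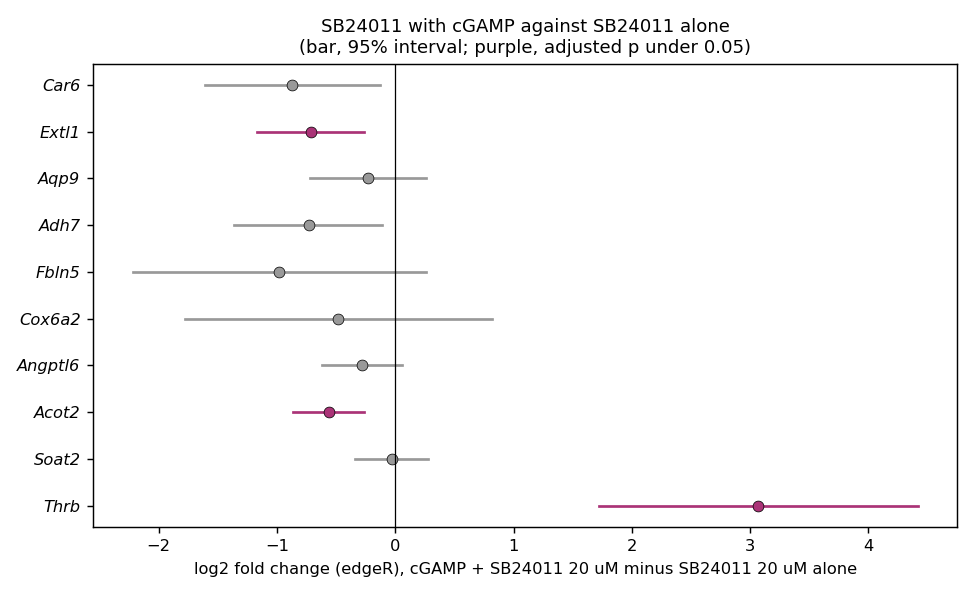
Log2 fold change from edgeR (x axis, cGAMP with 20 uM SB24011 minus 20 uM SB24011 alone) of the 10 genes (y axis), with the 95% interval as a bar and called genes in purple. Thrb lies at 3.07, and the other 9 genes lie between -0.98 and -0.03.

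The interaction asks whether SB24011 changed a gene by a different factor with cGAMP than without. It is the difference of 2 contrasts that were both used to pick the 10 genes, so it is not independent of the choice. edgeR called 0 of 10 (background 0.369%, 54 genes, 0.246% up and 0.123% down). At an unadjusted p under 0.05 edgeR had 0 of 10 and 1312 of all 14650 genes. DESeq2 and limma also called 0 of 10. limma had 5 of 10 at an unadjusted p under 0.05, against 1278 of all 14650 genes. Soat2 was at 0.44 ± 0.24 (adjusted p = 0.655) and Acot2 at -0.13 ± 0.22 (adjusted p = 0.942). For Thrb the fitted value depends on the prior count, since DMSO had no read, and nothing is read from it. The 54 genes were 66.7% up, against 51.3% with RLE size factors and 30.3% with library size alone.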

How the data were processed

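Poly(A) RNA libraries were made with a TruSeq stranded kit, per the labels' protocols. Per the submitters' processing notes, the build was GRCm38 (mm10) and the tools included StringTie 2.1.3b, HISAT2 2.1.0, Trimmomatic 0.38 and Bowtie2 2.3.4.1. Not given in the sources used here are the counter, its strand setting and what was done with multi-mapped reads. The authors' deposited table holds raw read counts and FPKM for 45777 genes per the file headers, and 45675 gene IDs were found in RefSeq GRCm38.p6, which gave coordinates and promoters. The deposited TPM and quantile-normalized values were not used.

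Counts were fitted in edgeR 4.0.16 (R 4.3.3) with filterByExpr, TMM and 1 quasi-likelihood model over 18 libraries (12 residual degrees of freedom). Tests were two-sided, adjusted by Benjamini-Hochberg over 14650 genes, and called under 0.05. limma 3.58.1 on log2(FPKM + 1) and DESeq2 1.42.0 were alternatives, with others in scaling, filter, libraries and a replicate block. The model code was tested on simulated data. The 10 genes, the lists and the rule for named genes were chosen with earlier results of these data known. That rule took the 10 genes, up to 3 called relatives per family changed at least 1 on the log2 scale, up to 4 called genes per pathway list, the genes most alike in profile, and genes sharing sequence or position.

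Library numbers in the labels form 3 sets. All same-set pairs correlated above 0.1 in their deviations from group means for cGAMP with SB24011 against SB24011 alone (0.105 to 0.176), SB24011 against DMSO (0.125 to 0.178) and 7a on cGAMP (0.137 to 0.183), so the sets were taken to pair these libraries. The main model has no block, and the blocked value is given where it changes a call. No pair of libraries of a group agreed within sampling noise.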

Additional observations from a re-analysis of the deposited data

How the results depend on the processing

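Counts of the 10 genes called moved as follows. For cGAMP against DMSO, 0 became 3 with library size alone, 1 with DESeq2, 2 with limma on log2(FPKM + 0.1) and 2 with a replicate block for library set, and 0 to 1 when a library was left out. All genes called in that comparison went from 5193 to 5230 with DESeq2 and 4196 to 4664 without 1 library. With library size alone they were 1706 up and 5149 down. For cGAMP with SB24011 against SB24011 alone, 3 became 6 with library size alone, 8 with limma on log2(FPKM + 1), 6 with a pseudocount of 0.1, 5 with the replicate block and 7 with only the 2 groups fitted, and 2 to 3 when a library was left out. All genes called there went from 4008 to 6281 with library size alone, 6082 with limma (FPKM + 1) and 3023 to 4116 without 1 library. For the other settings of both comparisons the share over all genes is not given here, so those counts are not read as a result. For the interaction, 54 genes over all became 33 with library size alone, 173 with DESeq2, 30 with limma (FPKM + 0.1), 321 with the replicate block and 29 with only its groups, and 27 to 72 without 1 library. For 7a on cGAMP, 0 over all genes became 38 with DESeq2, 8 with the replicate block and 0 to 49 without 1 library (49 without 7a replicate 3). Relatives called for SB24011 against 7a went from 21 to 33 with the replicate block, for which the share over all genes is not given here. The block ended no call among the 10 genes, and 18 of 18 libraries correlated best within their own set.

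Pseudocounts shrank the median log2 fold change of the 10 genes. With FPKM + 1 it was 2.26 for SB24011 alone, 1.9 for 20 uM and 1.76 for 10 uM on cGAMP and 1.82 against 7a, and with FPKM + 0.1 it was 3.54, 3.48 and 3.15 for the last 3, a shift that the pseudocount builds in for low genes. Leaving out 1 library gave 3.96 to 5.11 for SB24011 alone (highest without DMSO replicate 2), 3.8 to 4.63 for 10 uM on cGAMP and 0.21 to 0.93 for 7a.

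Among the 10 genes in the 4 tested comparisons, signs turned only in values that edgeR did not call. In the interaction Thrb, whose value depends on the prior count, was at -0.22, and at 0.32 with DESeq2, 0.08 with limma (FPKM + 1) and 0.61 with FPKM + 0.1. Under these pseudocounts Extl1 was at -0.52 and -0.5, Aqp9 at -0.25 and -0.13, Adh7 at -0.5 and -0.18, and Angptl6 at -0.22 and -0.04. With only the groups fitted Aqp9 and Angptl6 were each at -0.02. The cause was not tested. Leaving out 1 library gave interactions of -1.89 to 3.46 for Car6, -1.82 to 1.44 for Cox6a2, -1.62 to 0.24 for Fbln5, -0.73 to 3.07 for Thrb, -0.38 to 0.28 for Extl1, -0.37 to 0.39 for Aqp9, -0.19 to 0.76 for Adh7 and -0.09 to 0.26 for Angptl6. For cGAMP against DMSO it gave -4.32 to 1.02 for Car6, -1.91 to 1.34 for Cox6a2, -1.23 to 0.63 for Fbln5 and -0.62 to 0.14 for Aqp9. For 20 against 10 uM it gave -0.02 to 0.27 for Adh7, -0.01 to 0.21 for Aqp9, -0.21 to 0.07 for Extl1, -0.25 to 0.11 for Fbln5, -0.13 to 0.09 for Soat2 and -0.09 to 0.46 for Thrb. For cGAMP with SB24011 against SB24011 alone Soat2 ran from -0.15 to 0.07. Low counts without SB24011 limit Car6, Fbln5 and Thrb.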
